A study of Mus musculus with 26 samples.

Results

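Islets that had spent 4 h at 11 mM glucose were compared with islets that had spent 1 h at the same glucose concentration, gene by gene, on the arrays labelled as young islets at T4 and at T1. The comparison holds 4 of the 26 arrays of the series, 2 at each time, each called a biological replicate in the labels, and 12580 genes. All the islets of this time course came from male, wild-type C57/Bl6J mice of 5 weeks. They recovered for 1 day in RPMI medium with 11 mM glucose, and then spent a night at 3 mM glucose, which is time 0. The medium was then brought to 11 mM for 1 h or for 4 h, and 2 arrays of islets taken at time 0 complete the course. The other 20 arrays hold freshly isolated islets and islets kept at fixed glucose concentrations, from young (5 weeks) and old (56 weeks) mice. All 20 enter the tests through the pooled spread. Of them, 6 are also compared below: young islets kept for 2 days at 3 mM (2 arrays) or at 11 mM (4 arrays). Of these 4, replicates 3 and 4 belong to the array set with the higher Gapdh 5′ to 3′ signal ratio and the 3 mM arrays to the other, so with the array set in the model the differences after 2 days rest on replicates 1 and 2 at 11 mM against the 2 arrays at 3 mM. No group stayed at 3 mM for the same hours, so the time spent at 11 mM and the time spent in culture after the change of medium cannot be told apart. The labels do not say how many mice went into an array or whether the same islet preparation served all 3 times. Any p-value given here therefore reflects how much the arrays of the series vary within groups, a spread pooled over all 26 arrays that may be partly technical.

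Pancreatic islets are small clusters of endocrine cells, mostly insulin-secreting beta cells, which take up and phosphorylate glucose in proportion to its concentration and turn the signal into ATP, membrane depolarisation, calcium entry and cyclic AMP. The same signals reach transcription along several known routes: the carbohydrate response factor ChREBP, which acts on genes of glucose and lipid handling, calcium and cyclic AMP through MAP kinases and CREB, and insulin itself, which keeps FOXO factors out of the nucleus. Beta cells held at low glucose are also known to switch on the integrated stress response, in which phosphorylated eIF2alpha favours translation of ATF4, and ATF4 with CHOP and C/EBP partners transcribes genes of amino acid supply and of stress feedback.

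Each array carries 45101 probe sets, and every array was scaled by the authors to a trimmed mean of 150 intensity units. The 6 time course arrays had median intensities of 29 to 34, and their Gapdh 5′ to 3′ signal ratios lay between 0.194 and 0.277. Islet hormone transcripts were bright: Gcg, which encodes glucagon, was read at 8390 and 6030 at 1 h and at 7648 and 7072 at 4 h. The acinar markers set replicate 1 apart from replicate 2. Summed over 14 of the 18 listed markers that were measured, their intensity was 5633 and 662 at 1 h and 2480 and 1262 at 4 h, so that it was lower at 4 h in pair 1 and higher in pair 2. Ctrb1, a pancreatic protease precursor, was read at 1147 and 3 at 1 h and at 379 and 140 at 4 h, and none of the acinar genes passed the test. Summed markers of the other cell types differed less between the times. Duct cell markers (8 of 12 measured) summed to 9052 and 11591 at 1 h and to 8665 and 11824 at 4 h, and endothelial markers (15 of 16) to 1056 and 799 against 1012 and 685. Stellate cell markers (13 of 15) summed to 2601 and 2363 against 2332 and 2058, and leukocyte markers (16 of 17) to 1345 and 895 against 1139 and 808. No member of these 4 lists passed the test. A lower array signal in a tissue sample can mean fewer cells of a type or less RNA per cell, which cannot be told apart here.

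Between 1 h and 4 h, most of the larger changes were falls. At an adjusted p under 0.05 (limma, Benjamini-Hochberg over all genes), 597 of 12580 genes differed, which is 4.75% of the genes tested. Of these, 256 were higher at 4 h (2.03%) and 341 were lower (2.71%), with median log2 changes of 0.55 and -0.67 against a median of -0.03 over all genes. Changes are differences of log2(intensity + 16), a scale that understates the change of dim genes. A change of at least 2-fold was reached by 10 of the higher and by 49 of the lower genes, and at least 4-fold by 2 genes, Trib3 and Ddit3, both lower. All 597 genes moved the same way in both replicate pairs, as did 67.3% of all genes, and in 572 of them the arrays of the 2 times did not overlap, which held for 41.9% of all genes. The split between rises and falls depends on the scaling: with the arrays centred on their medians, 411 genes were higher and 177 lower, and the falls of Cebpg, Mthfd2, Ccng2, Klf15, Rora, Srf, Myc, Atf3 and Tnip1 described below did not pass. The replicate pairing also counts, since 387 genes passed, all among the 597, when the replicate number was left out of the model, and 88 passed when the term for the array set was left out as well. Leaving out one array lowered the count to 130 (1 h, replicate 1), 80 (1 h, replicate 2), 110 (4 h, replicate 1) or 118 (4 h, replicate 2), and 47 of the 597 genes, 12 higher and 35 lower, passed without each of the 4 arrays in turn. The plot of the pairs shows the spread behind these counts.

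**Figure D1:**
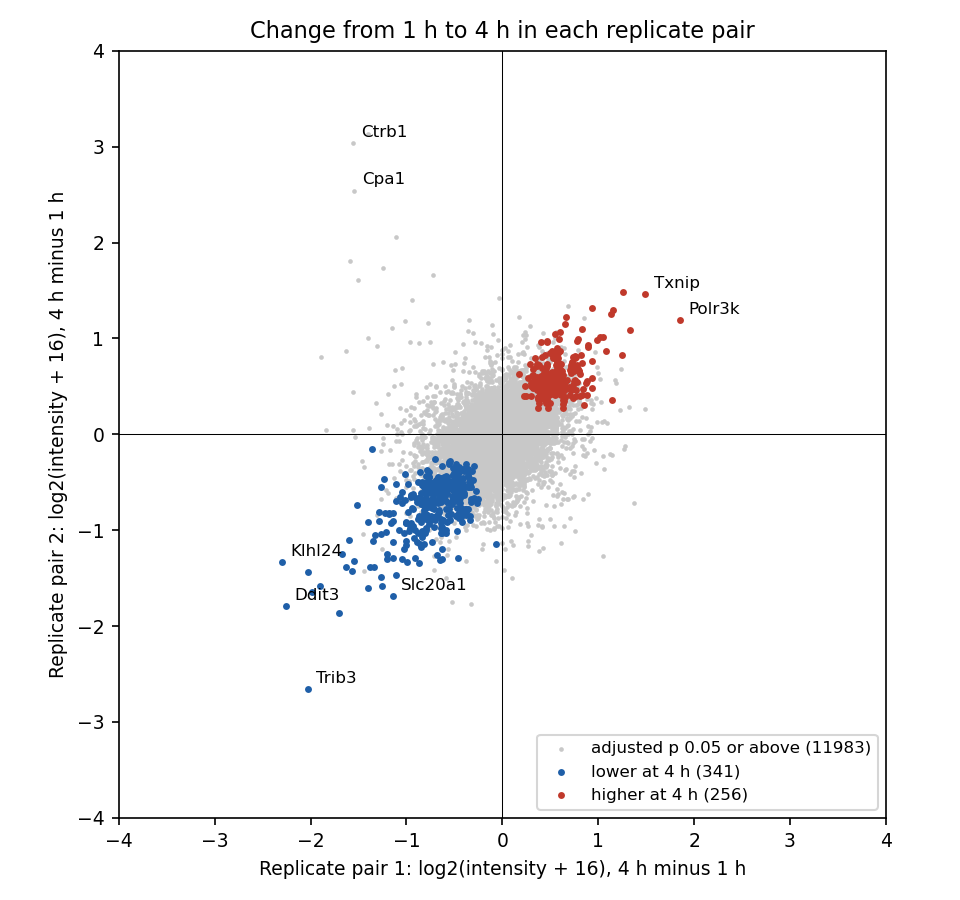
Change in log2(intensity + 16) from 1 h to 4 h at 11 mM glucose in replicate pair 1 (x axis) and replicate pair 2 (y axis) for 12580 genes; red points are the 256 genes higher at 4 h, blue points the 341 lower, grey points did not pass an adjusted p of 0.05. Called genes lie along the diagonal with Trib3 and Ddit3 at its lower end, while the acinar genes Ctrb1 and Cpa1 move in opposite directions in the 2 pairs.

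The 2 largest falls were of stress genes regulated by ATF4 and CHOP. Of 20 listed genes 17 were measured, and 9 of them were lower at 4 h and none higher, with a median log2 change of -0.59. The share lower was 52.9%, against 2.71% of all genes. Ddit3 encodes CHOP itself. Its intensity was 3681 and 3397 at time 0, 1528 and 1507 after 1 h, and 308 and 423 after 4 h. It fell by 2.02 on the log2 scale between 1 h and 4 h (SE 0.195, n = 2 pairs, limma adjusted p = 7.3e-06), which is 4.07-fold. A dimmer Ddit3 probe set changed by -0.50, and the mean of both probe sets by -1.26. Trib3, a pseudokinase induced by ATF4 and CHOP that feeds back on both, had 1622 and 1464 at time 0, 780 and 1043 at 1 h, and 179 and 152 at 4 h. Its fall was 5.07-fold (log2 change -2.34, SE 0.299, limma adjusted p = 0.00010). In both genes the 4 h arrays lay far below every 1 h array, and both kept the call without each array in turn.

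The feedback and effector genes of the same pathway followed with smaller changes. Ppp1r15a, which encodes GADD34, the regulatory subunit that directs phosphatase to eIF2alpha, went from 408 and 689 at 1 h to 258 and 270 at 4 h (log2 change -0.97, SE 0.148, limma adjusted p = 0.00062). Cebpb, a C/EBP partner of ATF4 and CHOP, went from 247 and 348 to 117 and 191 (-0.90, SE 0.149, adjusted p = 0.0012). The other 5 genes were named after their values were seen. Eif4ebp1, a repressor of cap-dependent translation, was at 866 and 1332 at 1 h and 465 and 644 at 4 h. Vldlr, a lipoprotein receptor, was at 893 and 855 against 513 and 601. Chac1, a glutathione-degrading enzyme, was at 263 and 350 against 162 and 132. Their log2 changes were -0.95, -0.64 and -0.98 with limma adjusted p-values of 0.0013 each. Ern1, the ER stress sensor IRE1alpha, changed by -0.64 and Cebpg, another C/EBP partner, by -0.39. The arrays of the 2 times stayed apart in all 9 genes, as in 572 of the 597 called genes and 41.9% of all genes. Cebpb lost its call without the 4 h replicate 1, Ppp1r15a, Chac1 and Eif4ebp1 without replicate 2 of either time, and Vldlr without replicate 1 of either time. Ern1 kept it only without the 4 h replicate 2, and Cebpg lost it without any one of the 4. With probe sets averaged, Ern1 (-0.35), Vldlr (-0.44) and Cebpg (-0.41) did not pass. Without the replicate number in the model Cebpg did not pass (adjusted p = 0.12).

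Atf4, the factor at the head of the list, did not pass between 1 h and 4 h. Its intensity was 2882 and 3028 at time 0, 1655 and 1844 at 1 h and 1719 and 1582 at 4 h, a log2 change of -0.08 from 1 h to 4 h (SE 0.120, limma adjusted p = 0.81) after one of -0.75 from time 0 to 1 h (adjusted p = 0.0052). Ddit3 changed by -1.21 in the first hour (adjusted p = 0.0052) and again after it. Chac1 likewise changed in both intervals, by -1.28 (adjusted p = 0.00091) and then -0.98. These 1 h values share the 1 h arrays with the comparison to 4 h, and of the 50 genes called between time 0 and 1 h no more than 6 were called when any of those 4 arrays was left out. The members that did not pass at 4 h against 1 h include Sesn2 (-0.59, limma adjusted p = 0.11), Nupr1 (-0.44, adjusted p = 0.28), Atf5 (-0.13), Ddit4 (-0.16) and Trib1 (0.33).

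Promoter sequence was read for the genes at the centre of this group, because ATF4 with C/EBP partners is known to bind a composite element. The windows run from 250 bases before to 50 bases after the start of each RefSeq transcript (build GRCm38.p6), and 273 of the 341 lower genes and 226 of the 256 higher genes had at least one. The letters TGATGNAA on either strand, a motif added after the falls had been seen, occurred in 17 of 378 windows of lower genes (4.5%), in 2.2% of those of higher genes, in 2.3% of those of all genes tested and in 4.0% of all windows; no test was made. Counted by gene, the letters were in 6.2% of lower genes, 2.2% of higher genes, 2.8% of genes tested and 4.5% of all genes with a window. Among the fallen CHOP and ATF4 genes 8 had a window and 3 held the letters, namely Trib3, Vldlr and Chac1. Ddit3, Ppp1r15a and Cebpb did not hold them. Among the fallen amino acid genes 1 of 5 did, Slc1a4. In the 4 promoters printed below, capitals mark the match. It lies on the strand opposite to the gene in each and therefore reads as the reverse complement of the letters. Vldlr is not printed, while Atf3, a fallen gene of the immediate early list, is. The match in Chac1 (chr2:119350992-119351241, plus strand) begins 193 bases before the start, that in Atf3 (chr1:191183334-191183583, minus strand) 110 bases before it, that in Slc1a4 (chr11:20332699-20332728, minus strand) 4 bases before it, and that in Trib3 (chr2:152344028-152344057, minus strand) 15 bases after it.
Chac1: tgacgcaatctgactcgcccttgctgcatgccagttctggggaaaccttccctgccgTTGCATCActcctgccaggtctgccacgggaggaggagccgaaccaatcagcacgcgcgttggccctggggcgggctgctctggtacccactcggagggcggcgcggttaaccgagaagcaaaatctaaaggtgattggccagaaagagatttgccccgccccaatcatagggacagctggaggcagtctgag
Atf3: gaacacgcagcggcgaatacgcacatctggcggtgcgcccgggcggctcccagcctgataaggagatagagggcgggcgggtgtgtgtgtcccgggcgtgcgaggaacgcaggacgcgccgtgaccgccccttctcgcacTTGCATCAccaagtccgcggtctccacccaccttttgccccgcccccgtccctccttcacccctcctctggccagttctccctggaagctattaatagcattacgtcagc
Slc1a4: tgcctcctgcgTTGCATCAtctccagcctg
Trib3: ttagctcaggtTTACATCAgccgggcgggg

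Genes of amino acid supply are the other known targets of ATF4, and 5 of the 6 that fell encode transporters or their subunits. Of 33 measured genes 6 were lower, 1 was higher, and 26 did not pass. That is 21.2% called, against 4.75% of all genes. The median log2 change was -0.29, against -0.03 over all genes, and 29 of 33 values lay below 0. Slc1a4, a neutral amino acid transporter, changed by -0.23 in the first hour without passing. It then dropped: 284 and 280 at time 0, 244 and 234 at 1 h, 84 and 80 at 4 h (log2 change from 1 h to 4 h -1.38, SE 0.140, limma adjusted p = 7.3e-06). Slc7a1, the carrier of arginine and lysine, went from 1542 and 1701 at 1 h to 760 and 754 at 4 h (-1.08, SE 0.122, adjusted p = 2.5e-05). Slc3a2 is the heavy chain shared by several transporters, and it was at 2464 and 3030 against 1414 and 1508 (-0.90, SE 0.116, adjusted p = 0.00011). These 3 genes kept the call without each array in turn, and in all of them the replicates of a time lay close together next to the change. Of the genes named after their values were seen, Slc7a5, the light chain that pairs with Slc3a2 to carry large neutral amino acids, was at 757 and 767 against 441 and 472 (-0.72), and Slc6a9, a glycine transporter, at 168 and 175 against 87 and 79 (-0.92). Mthfd2, a mitochondrial enzyme of folate metabolism, was at 1079 and 1416 against 639 and 857 (-0.73, limma adjusted p = 0.036, and 0.077 without the replicate number). Slc6a9 and Mthfd2 lost the call without any one of the 4 arrays, and Slc7a5 kept it only without the 4 h replicate 2. Slc6a9 changed by -0.68 with probe sets averaged and then did not pass.

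One transporter went the other way. Slc38a2, which encodes the system A carrier SNAT2, had 1355 and 1439 at time 0, 856 and 931 at 1 h, and 1441 and 1333 at 4 h. It was 0.63 higher at 4 h than at 1 h on the log2 scale (SE 0.101, limma adjusted p = 0.00096), after being 0.64 lower at 1 h than at time 0 (log2 change -0.64, adjusted p = 0.0052), so that 4 h and time 0 differed by -0.01 (adjusted p = 0.97). The first-hour fall and the later rise rest on the same 1 h arrays. Without replicate 1 of either time the rise did not pass. Asns, asparagine synthetase, changed by -0.22 (adjusted p = 0.44), and no tRNA synthetase passed, the nearest being Iars (-0.33, adjusted p = 0.079) and Mars1 (-0.41, adjusted p = 0.11). Gpt2, a mitochondrial alanine transaminase that is on no list and was named after its values were seen, fell with the transporters, from 208 and 180 to 77 and 54 (-1.38, SE 0.148, limma adjusted p = 1.5e-05, and -0.94 with probe sets averaged).

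Genes that FOXO factors or low fuel are known to induce were examined next. Of 24 measured, 6 (25.0%) were lower, against 2.71% of all genes, and none higher, with a median of -0.26. Stbd1, which tethers glycogen to membranes, had 892 and 1147 at time 0, 716 and 981 at 1 h and 235 and 384 at 4 h (log2 change from 1 h to 4 h -1.43, SE 0.236, limma adjusted p = 0.0012). Angptl6, a secreted angiopoietin-like protein, was at 1282 and 1197 against 657 and 607 (-0.95, adjusted p = 0.0029). Fbxo32, the ubiquitin ligase subunit atrogin-1, was at 134 and 170 against 55 and 77 (-1.04, adjusted p = 0.013). The groups stayed apart in these 3 genes, as in 572 of the 597 called genes and 41.9% of all genes. Angptl4, a secreted inhibitor of lipoprotein lipase, was dim, with 49 and 53 against 4 and 3 (-1.78, adjusted p = 0.0095), and its change ranged from -0.77 to -3.54 with the offset added before taking logs. Ccng2, an atypical cyclin, changed by -0.65, and Klf15, a fasting-induced transcription factor, by -0.75 (adjusted p = 0.047) after a first-hour change of -1.17 (adjusted p = 0.013). Both were named after their values were seen. In Ccng2 the replicates differed more than the times did, with 315 and 685 at 1 h and 188 and 443 at 4 h. Stbd1 lost its call without the 4 h replicate 1, Angptl6 kept it only without the 1 h replicate 1, and Fbxo32, Angptl4, Ccng2 and Klf15 lost it without any one of the 4 arrays. Fbxo32 (-0.65) and Ccng2 (-0.51) did not pass with probe sets averaged, and Ccng2 (adjusted p = 0.32) and Klf15 (adjusted p = 0.063) did not without the replicate number.

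**Figure D2:**
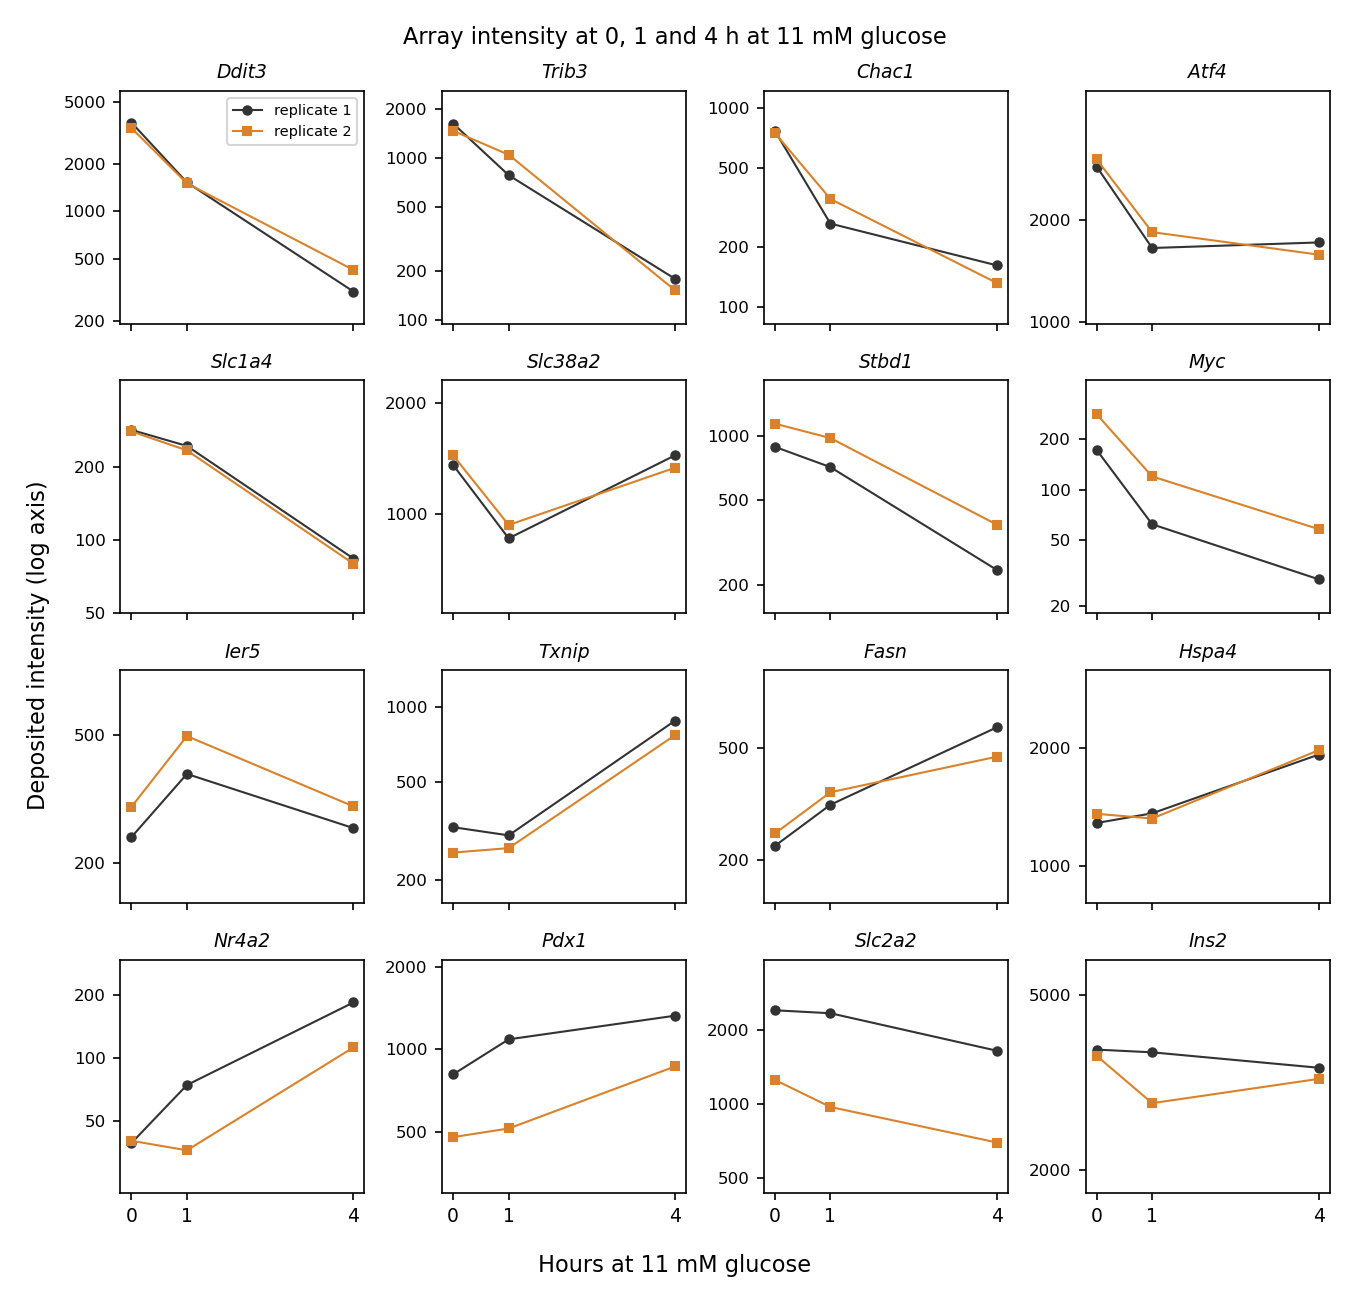
Deposited intensity (log axis) of 16 genes at 0, 1 and 4 h at 11 mM glucose, with replicate 1 as black circles and replicate 2 as orange squares. Ddit3, Trib3, Slc1a4 and Stbd1 go down from 1 h to 4 h in both replicates, Txnip, Fasn and Hspa4 go up, Slc38a2 and Ier5 turn at 1 h, and Pdx1 and Slc2a2 differ between replicates at every time.

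Immediate early transcription factors, which calcium and MAP kinase signals induce within minutes to an hour, included no gene that passed as higher at 4 h. Of 33 measured, 4 were lower (12.1%, against 2.71% of all genes) and the median was -0.16. Ier5, a growth factor inducible gene, had a peak at 1 h: 241 and 299 at time 0, 378 and 495 at 1 h, 257 and 300 at 4 h. It was 0.66 higher at 1 h than at time 0 (log2, limma adjusted p = 0.0055), changed by -0.61 from 1 h to 4 h (SE 0.108, adjusted p = 0.0020) and differed by 0.05 between time 0 and 4 h. The rise and the fall rest on the same 1 h arrays. Without replicate 2 of either time the fall did not pass. Srf, the serum response factor, was at 323 and 357 at 1 h and 233 and 203 at 4 h (-0.61, adjusted p = 0.023). Myc, a growth regulator, was at 62 and 120 against 29 and 58 (-0.84, adjusted p = 0.039), and Atf3, a stress-induced relative of ATF4, at 104 and 161 against 43 and 61 (-1.11, adjusted p = 0.049). Myc had already changed by -1.21 in the first hour (adjusted p = 0.016). Srf, Myc and Atf3 lost the call without any one of the 4 arrays and without the replicate number Myc (adjusted p = 0.15) and Atf3 (adjusted p = 0.097) did not pass.

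The best-known members of that class did not pass. Fos was at 226 and 212 at 1 h and 249 and 265 at 4 h, against 68 and 155 at time 0; the log2 change from 1 h to 4 h was 0.22 (limma adjusted p = 0.81) and that from time 0 to 4 h was 1.19 (adjusted p = 0.012). Egr1 was at 317 and 382 at 1 h and 296 and 316 at 4 h (-0.18, adjusted p = 0.79). Among 23 measured Nr4a receptors and CREB targets, 2 were higher, 1 lower, and the median was -0.02. Over all genes 4.75% were called, 2.03% higher and 2.71% lower. Nr4a2, an orphan nuclear receptor induced by cyclic AMP, rose from 74 and 36 at 1 h to 184 and 112 at 4 h (1.23, SE 0.271, adjusted p = 0.011), with 39 and 40 at time 0. Its mean over 6 probe sets changed by 0.63 and did not pass. Pde4b, a cyclic AMP phosphodiesterase, rose from 275 and 250 to 484 and 414 (0.74, adjusted p = 0.0079). Ppargc1a, the coactivator PGC-1alpha, was dim and lower, at 63 and 94 against 28 and 44 (-0.86, adjusted p = 0.022, and 0.061 without the replicate number). All 3 lost the call without any one of the 4 arrays. Nr4a1 was uneven between replicates, with 149 and 58 at 1 h and 97 and 55 at 4 h (-0.30, adjusted p = 0.80).

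Of 18 measured genes of MAP kinase phosphatases, which switch MAP kinases off, and of Sprouty proteins, 3 (16.7%) fell and none rose. The other 15 did not pass, the median was -0.19, and 2.71% of all genes were called lower. Dusp4, a nuclear phosphatase of ERK, was at 836 and 1313 at time 0, 512 and 878 at 1 h and 184 and 279 at 4 h (-1.50, SE 0.357, limma adjusted p = 0.018). Dusp8, which acts on JNK and p38, went from 373 and 346 to 143 and 177 (-1.10, SE 0.188, adjusted p = 0.0015), and Dusp16, which acts on JNK, from 471 and 647 to 227 and 334 (-0.96, SE 0.182, adjusted p = 0.0035). The groups did not overlap in any of the 3, nor did they in 572 of the 597 called genes and 41.9% of all genes. None of the list passed without the 1 h replicate 1 or without the 4 h replicate 1. Dusp4 lost its call without any one of the 4 arrays, Dusp8 without replicate 1 of either time, and Dusp16 kept it only without the 4 h replicate 2. Dusp8 changed by -0.67 with probe sets averaged.

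Binding motifs of the factors that carry calcium, cyclic AMP and serum signals were counted in the same promoter windows. The full cyclic AMP response element TGACGTCA was in 2.6% of the windows of lower genes, 1.4% of those of higher genes and 3.0% of those of all genes tested. Its first letters TGACG, which every full element also holds, were in 33.1%, 40.9% and 30.3%. The CArG box bound by SRF was in 4.0%, 2.9% and 1.3%, the E-box CACGTG in 12.4%, 11.6% and 9.6%, and the AP-1 letters TGANTCA in 4.8%, 4.0% and 5.2%. In all windows the shares were 1.8%, 20.8%, 1.6%, 7.2% and 7.8% in that order. Both strands were searched and no test was made. The promoters of 4 fallen genes show what these matches look like, with capitals on the match. Dusp8 (chr7:142095285-142095534, minus strand) holds 2 full cyclic AMP elements, which begin 107 and 63 bases before the start, and Ppp1r15a (chr7:45526262-45526291, minus strand) holds 1 that begins 12 bases before it. Srf (chr17:46556163-46556412, minus strand) holds 2 CArG boxes, 82 and 62 bases before its own start. Slc20a1 (chr2:129198523-129198772, plus strand), a phosphate carrier described with the other large falls, holds 2 E-boxes, 175 and 22 bases before it.
Dusp8: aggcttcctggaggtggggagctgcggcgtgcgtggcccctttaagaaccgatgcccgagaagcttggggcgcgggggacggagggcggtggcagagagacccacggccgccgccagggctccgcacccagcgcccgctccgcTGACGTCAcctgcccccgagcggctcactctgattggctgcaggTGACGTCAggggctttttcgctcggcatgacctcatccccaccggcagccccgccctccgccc
Ppp1r15a: cgcctctccggTGACGTCAgcacagcgccg
Srf: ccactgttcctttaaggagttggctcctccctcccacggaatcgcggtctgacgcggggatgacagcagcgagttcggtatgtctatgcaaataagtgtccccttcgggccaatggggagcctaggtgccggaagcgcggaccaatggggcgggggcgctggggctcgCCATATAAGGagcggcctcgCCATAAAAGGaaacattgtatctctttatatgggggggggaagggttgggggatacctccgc
Slc20a1: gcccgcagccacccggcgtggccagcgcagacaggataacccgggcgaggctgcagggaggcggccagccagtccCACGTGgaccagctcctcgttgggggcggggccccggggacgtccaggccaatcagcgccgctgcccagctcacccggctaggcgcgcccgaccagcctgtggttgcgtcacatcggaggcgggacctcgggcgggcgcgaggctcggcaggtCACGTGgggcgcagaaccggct

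Targets of ChREBP and genes of lipid synthesis rose in part. Of 29 measured, 4 (13.8%) were higher at 4 h, against 2.03% of all genes, none was lower, and the median was 0.06. Txnip, a thioredoxin-binding arrestin that ChREBP induces and that limits glucose uptake, was flat in the first hour and rose afterwards: 328 and 259 at time 0, 304 and 270 at 1 h, 884 and 773 at 4 h. The rise was 2.79-fold (log2 change 1.48, SE 0.186, limma adjusted p = 9.5e-05) and held without each array in turn. Fasn, fatty acid synthase, went from 314 and 348 to 593 and 466 (0.64, SE 0.135, adjusted p = 0.0078). Pgd, an enzyme of the pentose phosphate pathway that supplies NADPH, went from 927 and 1440 to 1547 and 2421 (0.74, SE 0.162, adjusted p = 0.011, and 0.098 without the replicate number). Arrdc4, an arrestin related to Txnip, went from 55 and 84 to 105 and 122 (0.62, adjusted p = 0.030, and 0.065 without the replicate number). A second Arrdc4 probe set changed by -0.41, and the mean of both by 0.10. Fasn kept its call only without the 4 h replicate 2, and Pgd and Arrdc4 lost it without any one of the 4 arrays. Scd2, a fatty acid desaturase, just missed the threshold, with 881 and 784 at 1 h and 1536 and 1460 at 4 h (0.84, adjusted p = 0.053). Acly, ATP citrate lyase, was at 4066 and 3230 against 4174 and 3420 (0.06, adjusted p = 0.87). None of 20 cholesterol synthesis genes passed.

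Of 21 measured genes of cytosolic chaperones and the heat shock response 5 (23.8%) passed, all higher, against 2.03% of all genes. The other 16 did not pass, while 20 of 21 values lay above 0 and the median was 0.32, against -0.03 over all genes. With no intensity trend in the model 1 passed. Hspa4, an exchange factor for HSP70, was at 1360 and 1319 at 1 h and 1919 and 1969 at 4 h (0.53, SE 0.108, limma adjusted p = 0.0057). Hsph1, its relative HSP105, was at 1822 and 2253 against 2853 and 3259 (0.59, SE 0.150, adjusted p = 0.028). Dnaja1, a J-domain cochaperone, was at 3237 and 3459 against 4814 and 4728 (0.51, adjusted p = 0.026). The times did not overlap in these genes, nor did they in 572 of the 597 called genes and 41.9% of all genes. Chordc1, a cochaperone of HSP90, changed by 0.43, and Dnajb4, another J-domain protein named after its value was seen, by 0.51. All 5 lost the call without any one of the 4 arrays. Hspa4 (0.31), Dnaja1 (0.43), Hsph1 (0.54) and Dnajb4 (0.37) did not pass with probe sets averaged, and Hsph1, Chordc1 and Dnajb4 did not without the replicate number (adjusted p = 0.086, 0.057 and 0.091). The classical heat shock genes were uneven between replicates or flat: Hspa1b was at 1859 and 3443 against 2550 and 3935 (0.32, adjusted p = 0.85) and Hspa8, the constitutive HSC70, changed by 0.01. Ahsa2, an activator of the HSP90 ATPase that is on no list, was among the 15 largest rises, with 449 and 412 against 848 and 801 (0.91, SE 0.122, adjusted p = 0.00016), and held without each array in turn.

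Chaperones of the endoplasmic reticulum form a separate list. Among its 35 measured genes of the unfolded protein response 1 rose and 1 fell (5.7% called), with a median of -0.01. Over all genes 4.75% were called, 2.03% higher and 2.71% lower. Herpud1, a stress-induced component of ER-associated degradation, went from 2929 and 2644 to 1888 and 1848 (-0.57, limma adjusted p = 0.0095), and Sec24d, a subunit of the COPII coat, from 1242 and 1106 to 1918 and 1526 (0.54, adjusted p = 0.0082). Hspa5, the main ER chaperone BiP, was at 8233 and 6088 against 7696 and 6858 (0.04, adjusted p = 0.95). Of the proteasome subunits 30 of 31 values lay above 0 and the median was 0.19, against -0.03 over all genes. The 1 gene that passed (3.2%) was Psmd12, with 1249 and 1357 against 1786 and 1824 (0.47, limma adjusted p = 0.025). The count of subunits called higher was 6 with the arrays centred on their medians, 11 with the time course arrays only and 0 with no intensity trend. Values above 0 were also 31 of 35 for oxidative phosphorylation subunits (median 0.09) and 19 of 27 for cytosolic ribosomal proteins (median 0.04). Of 21 measured antioxidant genes, many of them NRF2 targets, 3 were higher and 1 lower (19.0% called). Gclc, which catalyses the first step of glutathione synthesis, went from 543 and 694 to 916 and 1229 (0.77, SE 0.172, adjusted p = 0.012). Srxn1, sulfiredoxin, changed by 0.61 (adjusted p = 0.040), Txnrd1, thioredoxin reductase, by 0.41 (adjusted p = 0.038), and Cat, catalase, by -0.64 (adjusted p = 0.032). Without the replicate number Srxn1, Txnrd1 and Cat did not pass (adjusted p = 0.11, 0.088 and 0.071). Sec24d kept its call only without the 4 h replicate 2, and the other genes of this paragraph that passed lost it without any one of the 4 arrays.

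Of 31 measured genes of beta cell function 2 (6.5%) were higher at 4 h, against 2.03% of all genes, none was lower, and the median was 0.13. Pdx1, the homeodomain factor of beta cell identity, was at 811 and 478 at time 0, 1089 and 514 at 1 h and 1329 and 867 at 4 h. It was higher at 4 h within each pair (log2 change 0.51, SE 0.127, limma adjusted p = 0.024), but the arrays of the times overlapped, since replicate 1 stood above replicate 2 throughout. Without the replicate number Pdx1 did not pass (adjusted p = 0.35), and it kept the call only without the 1 h replicate 1. Nkx2-2, another islet transcription factor, was at 1267 and 926 at time 0, 902 and 664 at 1 h and 1165 and 1010 at 4 h (0.48, adjusted p = 0.028, and 0.11 without the replicate number), and it lost its call without any one of the 4 arrays. Slc2a2, the glucose transporter GLUT2, was at 2329 and 972 against 1642 and 698 (-0.48, adjusted p = 0.11). G6pc2, the islet glucose-6-phosphatase, was at 2528 and 1669 against 3219 and 2200 (0.37, adjusted p = 0.14). Ins2, one of the 2 insulin genes of the mouse, was at 3712 and 2844 against 3424 and 3230 (0.03, SE 0.219, adjusted p = 0.97), and none of 17 prohormone and neuropeptide genes passed. The hybridization control cre-3 was read at 7327 and 5359 at 1 h and at 6605 and 6128 at 4 h on the same arrays, lower in replicate 2 as Ins2 was, and its part in the hormone readings was not tested.

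**Figure D3:**
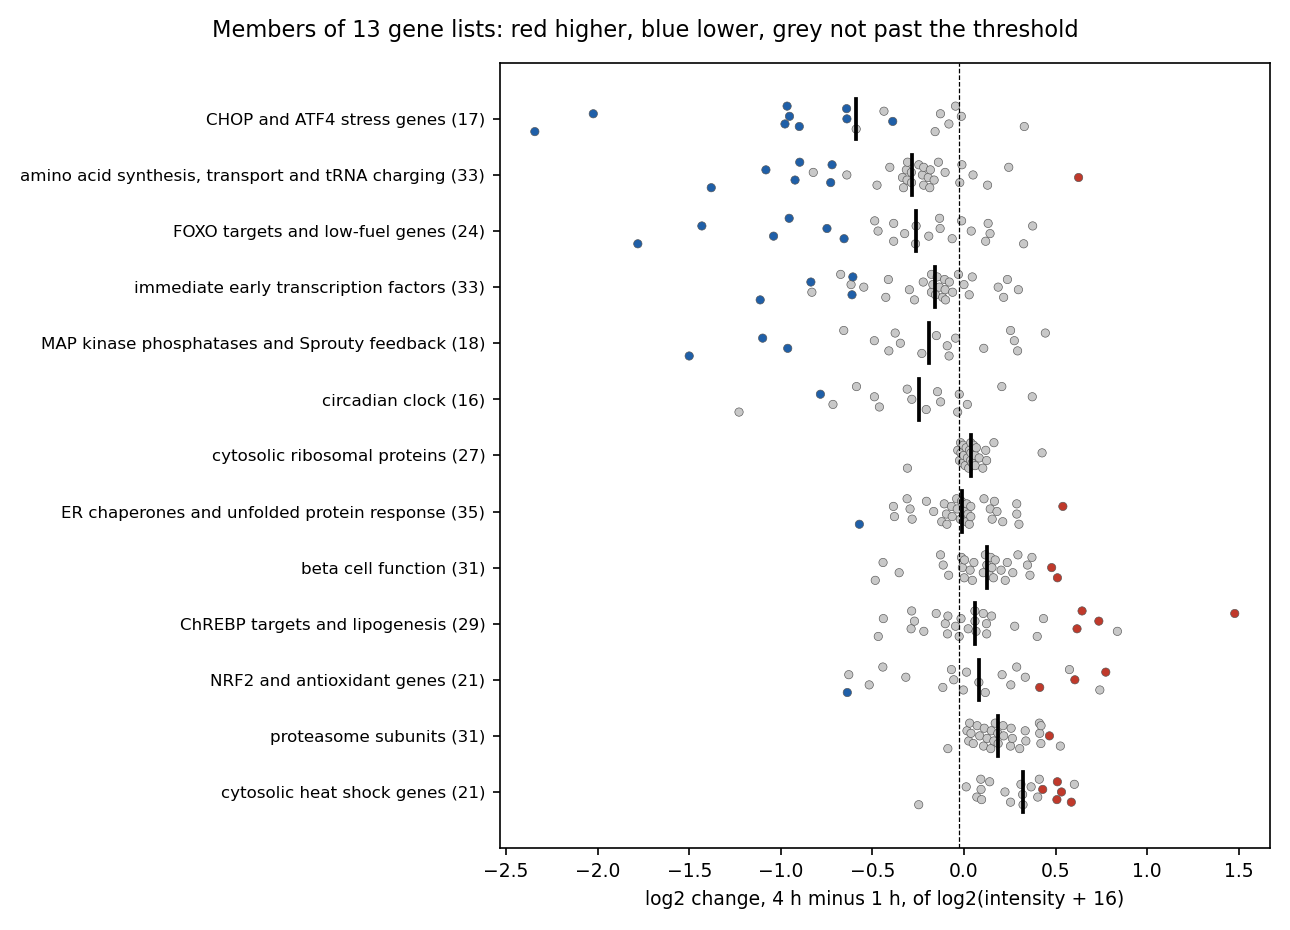
Log2 change from 1 h to 4 h (x axis) of the measured members of 13 gene lists, with the number measured in brackets; each point is a gene, red higher at 4 h, blue lower, grey not past an adjusted p of 0.05, the thick bar the list's median and the dashed line the median of all genes. The CHOP and ATF4 genes lie farthest to the left with a median of -0.59 and the cytosolic heat shock genes farthest to the right with 0.32.

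Several of the largest falls belong to no list. N4bp2l1, a gene of little-known function, went from 337 and 281 at 1 h to 73 and 79 at 4 h (-1.82, SE 0.169, limma adjusted p = 7.3e-06), and Klhl24, a substrate adaptor of ubiquitin ligases, from 269 and 259 to 42 and 93 (-1.82, SE 0.217, adjusted p = 4.8e-05). Both depend on the probe set: averaged over their probe sets they changed by -0.98 and -0.81, and single probe sets changed by -0.15 and 0.22. Stard5, a sterol carrier, was bright and fell on the mean of its probe sets as well (-1.68): 1245 and 874 at time 0, 1030 and 761 at 1 h, 241 and 272 at 4 h (-1.73, SE 0.174, adjusted p = 7.3e-06). Slc30a1, a zinc exporter of the plasma membrane, had 962 and 793 at 1 h and 301 and 294 at 4 h (-1.50, SE 0.225, adjusted p = 0.00049). Slc20a1, the sodium-phosphate carrier PiT-1, had 811 and 1604 against 358 and 487 (-1.42, SE 0.191, adjusted p = 0.00016, and -0.84 with probe sets averaged). Nabp1, a single-strand DNA-binding protein, had 501 and 636 against 159 and 227 (-1.49, SE 0.146, adjusted p = 7.3e-06). In each of these genes the 4 h arrays lay below both 1 h arrays, which the rule for picking the 15 largest falls required. The dimmer Zim1 (215 and 185 against 46 and 51), A930011G23Rik (108 and 74 against 23 and 22) and Akna (101 and 125 against 33 and 31) changed by -1.74, -1.46 and -1.42. All 9 genes kept the call without each array in turn. Just below them, and named after their values were seen, stood Pim3, a serine/threonine kinase (873 and 866 against 369 and 343, -1.25), Tle3, a corepressor (512 and 451 against 192 and 200, -1.23, and -0.55 with probe sets averaged), Fnip2, a folliculin partner (687 and 857 against 302 and 341, -1.22), and Rasgrf1, a calcium-regulated Ras exchange factor (980 and 975 against 466 and 386, -1.17, and -0.74 with probe sets averaged). These 4 also kept the call without each array.

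The largest rises were smaller, and several were of dim genes. Mir22hg, the host transcript of miR-22, rose in both intervals: 121 and 129 at time 0, 333 and 269 at 1 h, 748 and 665 at 4 h, with log2 changes of 1.16 (limma adjusted p = 0.014) and then 1.19 (SE 0.216, adjusted p = 0.0023). Oga, the enzyme that removes O-linked N-acetylglucosamine from proteins, went from 780 and 762 to 1561 and 1517 (0.98, SE 0.140, adjusted p = 0.00028). Over its 6 probe sets Oga changed by 0.51 and did not pass. Rbm12 and Rbm14, RNA-binding proteins, went from 279 and 314 to 594 and 649 (1.03, adjusted p = 2.4e-05, and 0.56 with probe sets averaged) and from 419 and 491 to 907 and 913 (0.98, adjusted p = 0.0012). Ints13, a subunit of the Integrator complex that processes small nuclear RNA, went from 103 and 91 to 225 and 200 (1.02, adjusted p = 0.00014). Nipal1, a magnesium transporter, went from 594 and 424 to 1067 and 927 (0.96, adjusted p = 4.8e-05). The arrays of the times did not overlap in these genes, which the rule for picking the 15 largest rises required. Oga, Rbm12, Ints13 and Nipal1 kept the call without each array, Rbm14 lost it without the 4 h replicate 1, and Mir22hg kept it only without the 1 h replicate 1. Slitrk6, a neuronal transmembrane protein, went from 97 and 100 to 200 and 272 (1.12, adjusted p = 0.0023) and kept its call only without the 4 h replicate 1.

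Of the remaining 5 large rises, Polr3k, a subunit of RNA polymerase III, had the largest log2 change (1.52, SE 0.257, limma adjusted p = 0.0013), with 127 and 69 at time 0, 44 and 90 at 1 h and 201 and 226 at 4 h. Its other 3 probe sets changed by 0.25 to 0.58, and the call was lost without the 1 h replicate 1 or the 4 h replicate 2. Kcnab3 (7 and 4 against 39 and 40), Kif23 (11 and 9 against 52 and 37) and Gpc1 (13 and 5 against 30 and 33) were near the bottom of the scale and had 22 to 41 at time 0, so that their 1 h arrays were the low ones. 1700086O06Rik was at 38 and 34 against 112 and 73. Kcnab3 kept its call only without the 4 h replicate 1, and Kif23, Gpc1 and 1700086O06Rik lost it without any one of the 4 arrays. Gpc1 did not pass without the replicate number (adjusted p = 0.052), and Kcnab3, which changed by 0.70 with probe sets averaged, did not pass then.

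In the remaining lists 0 to 2 genes each were called, beside 2.71% of all genes called lower and 2.03% called higher. Slc2a1, the glucose transporter GLUT1, was the 1 called gene among 26 of glycolysis and hypoxia (3.8%), with 278 and 621 against 197 and 245 (-0.88, limma adjusted p = 0.0079, and 0.10 without the replicate number). Of 22 cyclin D, CDK inhibitor and p53 target genes 2 fell (9.1%): Trp53inp1, a stress-induced regulator of autophagy, changed by -0.82 (2896 and 2677 against 1393 and 1758, adjusted p = 0.0015) and the kinase Plk3 by -1.004 (495 and 437 against 253 and 198, adjusted p = 0.014). Rora, a nuclear receptor of the clock, was the 1 called gene of 16 (6.2%), with 533 and 457 against 278 and 282 (-0.78, adjusted p = 0.018). Dbp, a clock output factor, went from 1283 and 1025 to 528 and 437 without passing (-1.23, SE 0.408, adjusted p = 0.092). Bcl3 (202 and 811 against 129 and 389, -0.81) and Tnip1 (275 and 870 against 179 and 609, -0.54), the 2 called of 25 genes of the NF-kappaB system (8.0%), were brighter in replicate 2 than in replicate 1 at each time, and without the replicate number neither passed (adjusted p = 0.55 and 0.68). Slc2a1 lost its call without replicate 2 of either time, Trp53inp1 without replicate 1 of either time, and Bcl3 kept it only without the 4 h replicate 1. Plk3, Rora and Tnip1 lost theirs without any one of the 4 arrays. Among 41 genes of ribosome biogenesis 1 rose (2.4%): Nop56, a core protein of small nucleolar ribonucleoproteins, with 246 and 273 at time 0, 372 and 390 at 1 h and 485 and 514 at 4 h (0.38, adjusted p = 0.037, and 0.052 without the replicate number), and it lost its call without any one of the 4 arrays. None passed of 25 cell cycle genes, 16 snoRNA host genes, 27 cytosolic ribosomal proteins and 35 subunits of oxidative phosphorylation. The medians of these 4 lists were -0.11, -0.06, 0.04 and 0.09.

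The arrays of time 0 give the change over the first hour and over all 4 h. Between time 0 and 1 h 50 genes passed (0.397% of 12580), 35 higher and 15 lower, and between time 0 and 4 h 1667 did (13.3%), 834 higher (6.63%) and 833 lower (6.62%). For 1 h the shares were 0.278% and 0.119%. The count of 1667 became 545 or 702 without replicate 1 or 2 of time 0, and 636 or 622 without replicate 1 or 2 of 4 h. The 3 comparisons share arrays, so they are given side by side and no overlap was counted. Genes that did not pass in the first hour but did from 1 h to 4 h include Txnip (log2 -0.02 from time 0 to 1 h and 1.48 from 1 h to 4 h), Slc7a1 (-0.07 and -1.08), Slc30a1 (0.22 and -1.50) and Hspa4 (0.02 and 0.53). Depp1, a FOXO target, was the reverse, with 1294 and 2119 at time 0, 344 and 786 at 1 h and 219 and 609 at 4 h, a change of -1.64 in the first hour (limma adjusted p = 0.011) and of -0.49 afterwards (adjusted p = 0.43).

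Young islets kept for 2 days at 11 mM or at 3 mM share no array with the time course. They show which of the 4 h changes had a counterpart after long culture, there between glucose concentrations and not between times. At 11 mM against 3 mM 3678 genes passed (29.2%), 1881 higher (14.95%) and 1797 lower (14.3%), or 1196 higher and 2360 lower with the arrays centred on their medians. The count was 2390 without the 3 mM replicate 1 and 2376 without the 11 mM replicate 2. Of the 256 genes higher at 4 h, 157 were also higher after 2 days (61.3% of the 256 and 8.3% of the 1881), 5 were lower and 94 did not pass. Of the 341 genes lower at 4 h, 181 were also lower (53.1% of the 341 and 10.1% of the 1797), 14 were higher and 146 did not pass. The median log2 differences after 2 days were 0.47 for the first group and -0.45 for the second, against 0.05 for all genes.

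Of the 9 CHOP and ATF4 genes that fell by 4 h, 8 were also lower at 11 mM than at 3 mM after 2 days, and Chac1 did not pass (0.13, limma adjusted p = 0.61). The share lower after 2 days was 53.1% of all 341 genes lower at 4 h, and 14.3% of all genes. Ddit3 (-3.86, limma adjusted p = 3.0e-11), Trib3 (-2.89) and Ppp1r15a (-2.29) had the largest differences, followed by Eif4ebp1 (-1.08), Cebpb (-0.93), Ern1 (-0.78), Vldlr (-0.47) and Cebpg (-0.40). Stbd1, of the FOXO list, was lower as well (-4.43, adjusted p = 6.6e-11). Nupr1, a stress-induced chromatin protein that had not passed at 4 h, was lower by 3.58 (log2 difference -3.58, adjusted p = 1.6e-10). Some falls outside the CHOP and ATF4 list did not pass after 2 days, where Slc1a4 was at 0.03 (adjusted p = 0.91), Slc7a5 at 0.17 (adjusted p = 0.36), Gpt2 at -0.11 (adjusted p = 0.61), Nabp1 at -0.18 (adjusted p = 0.38) and Klhl24 at -0.25 (adjusted p = 0.43). Of the 6 fallen amino acid genes 3 were lower after 2 days, 3 did not pass and none was higher. Slc3a2 was at -0.96 (limma adjusted p = 4.1e-06) and Slc7a1 at -0.38 (adjusted p = 0.022). Asns, which had not passed at 4 h, was higher at 11 mM, by 0.55 (adjusted p = 0.0039). Among the rises Slitrk6 (2.34), Mir22hg (1.94), Nr4a2 (1.52), Nipal1 (1.50), Txnip (1.10) and Pdx1 (1.68) were higher after 2 days too.

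A few genes had opposite signs in the 2 comparisons, which have unlike references: 1 h at 11 mM in the first and 3 mM in the second. Tmem215, a transmembrane protein, was lower at 4 h, with 278 and 309 at 1 h and 165 and 201 at 4 h (-0.64, SE 0.124, limma adjusted p = 0.0041), and was 1.92 higher on the log2 scale at 11 mM than at 3 mM after 2 days (adjusted p = 9.3e-10). It was named after its values were seen, it lost the 4 h call without any one of the 4 arrays, and it changed by -0.30 with probe sets averaged and then did not pass. The cochaperones Hspa4 and Hsph1 were higher at 4 h and lower after 2 days (-0.62, adjusted p = 0.00021, and -0.44, adjusted p = 0.033), as were Nop56 (-0.53), the histone chaperone Nasp (-0.54) and Pdrg1 (-0.36), the last pair named after their values were seen. Slc2a2, which did not pass at 4 h, was 2.27 higher after 2 days (adjusted p = 8.4e-09). Ier5, which peaked at 1 h, was 0.32 higher after 2 days (adjusted p = 0.029), and it differed by 0.05 between time 0 and 4 h.

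**Figure D4:**
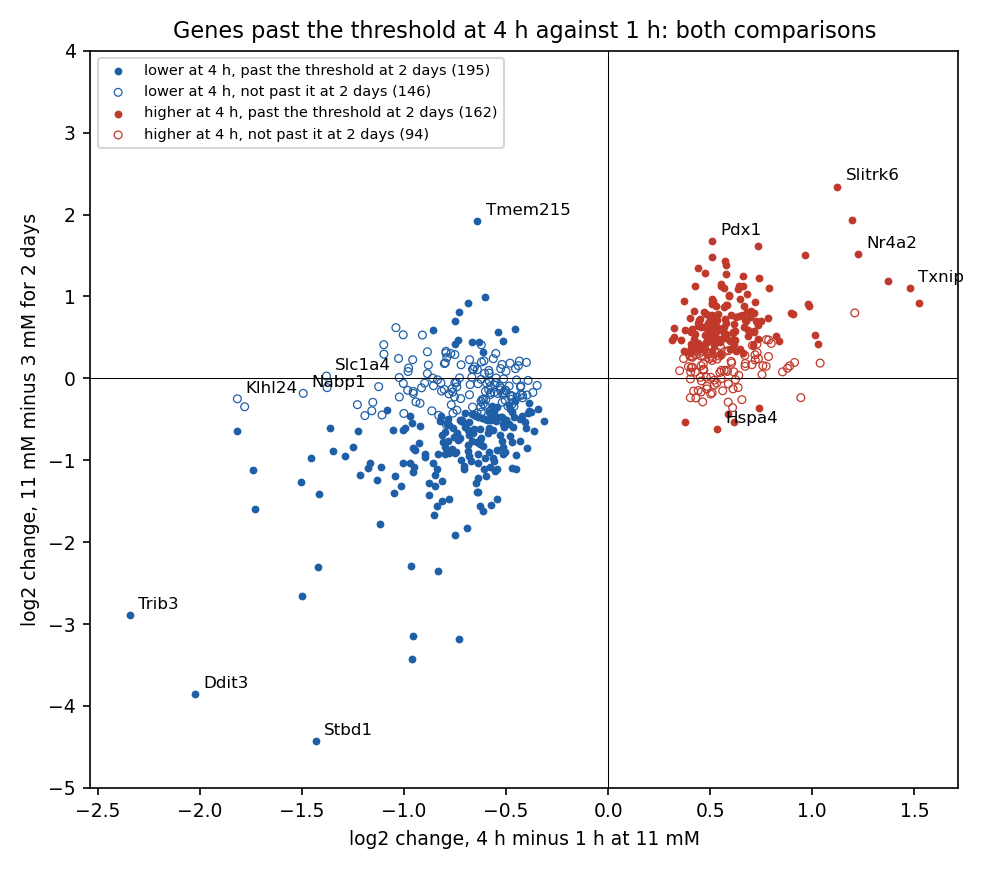
Log2 change from 1 h to 4 h at 11 mM (x axis) against the log2 difference between 11 and 3 mM after 2 days (y axis) for the 597 genes called at 4 h against 1 h; filled points also passed at 2 days, open points did not. Ddit3, Trib3 and Stbd1 lie far down on the lower left, Slc1a4, Nabp1 and Klhl24 near 0 on the y axis, and Tmem215 in the upper left.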

How the data were processed

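Biotinylated cRNA was made from 50 ng of Trizol-extracted RNA through 2 cycles of cDNA synthesis, per the labels' protocols. The deposited values are linear signal intensities from MAS5, a tool named in the submitters' processing notes; its version is not given in the sources used here. Of 45101 probe sets, 34945 have 1 gene symbol, 932 several and 9160 none, and 64 are controls; 34741 symbols were updated by Entrez number.

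Values were taken as log2(intensity + 16). A probe set was kept where at least 2 of 26 arrays read it above their own median (23047 probe sets), and the brightest stood for its gene (12580 genes). limma 3.58.1 in R 4.3.3 was fitted to all 26 arrays with 12 group means, a term for 2 array sets that differ in their Gapdh 5′ to 3′ ratio, and the replicate number of the time course as a block, with an intensity trend (12 residual and 8.32 prior degrees of freedom). p-values were adjusted over all genes by Benjamini-Hochberg, with a threshold of 0.05. The replicate numbers come from the titles, and they were taken as pairs because same-numbered arrays deviate together: deviations from the group means correlate by 0.64 (0 and 1 h), 0.56 (0 and 4 h) and 0.61 (1 and 4 h) across genes. Alternatives were the block, the terms and arrays of the fit, the offset, the scaling, the filter, the probe set rule, the intensity trend and each replicate left out.

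Named genes are the 15 largest rises and 15 largest falls among called genes with the same sign in both pairs and no overlap, up to 4 members of each of 30 lists with the smallest adjusted p, and Fos, Egr1, Nr4a1, Txnip, Ddit3, Ins2, Slc2a2 and Pdx1. The genes, lists and tests were chosen with earlier results of these data known. Promoter sequences are RefSeq's, 300 bases for each start.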

Additional observations from a re-analysis of the deposited data

How the results depend on the processing

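With 2 arrays at each time, calls rest on the pooled spread of the model, and so few arrays limit the precision. The count of 597 genes at 4 h against 1 h became 387 with no replicate block, 88 with 12 group means alone, 1755 with the time course arrays only and 1158 with the 4 arrays of 1 h and 4 h only. Leaving out one array at a time gave 80 to 504 genes, with the lone array assumed to vary like the other groups; the offsets, scalings, filters, probe set mean and variance model gave 413 to 666. For 1 h against time 0 the count of 50 became 33 with no replicate block, 8 with group means alone and 181 with the time course arrays only, and 0 to 42 with one array left out. It was 0 by limma without the 1 h replicate 1, where 465 genes had an unadjusted p under 0.05, and 1 without either array of time 0. For 4 h against time 0 the count of 1667 became 618 with group means alone and 3268 with the time course arrays only, and 545 to 1569 with one array left out. For 11 against 3 mM over 2 days the count of 3678 became 2376 to 3036 with one array left out, 2390 of them without the 3 mM replicate 1. Of the 68 named genes that passed, none changed direction under an alternative that gave it a value, which all did but the filter on all 6 time course arrays, where 60 had one; 17 lost the call with no replicate block, 41 with group means alone, and 39 to 41 without one of the 1 h or 4 h arrays. The cause of these changes was not tested.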

Other observations

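Genes of RNA processing were seen among the rises, and families were then counted by the start of their symbol, so the counts below were chosen after the values were seen and carry no test. Of 34 measured Rbm genes, which encode RNA-binding proteins, 6 were higher at 4 h than at 1 h and 1, Rbm33, was lower, with a median log2 change of 0.13. Of 19 Hnrnp genes, which encode proteins that coat nascent transcripts, 3 were higher and none lower (median 0.13). Hnrnpm was at 637 and 593 at 1 h and 922 and 1094 at 4 h (0.69, SE 0.113, limma adjusted p = 0.0010). Of 10 Srsf splicing factors Srsf3 passed, with 453 and 536 against 858 and 1023 (0.91, SE 0.122, adjusted p = 0.00016), and it kept the call without each of the 4 arrays in turn, while its change with probe sets averaged was 0.55. Hnrnpm lost its call without replicate 2 of either time. The background is 2.03% of all genes called higher.

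Of 294 measured Zfp genes 11 were lower and 2 higher, a share near the 2.71% of all genes called lower, and the median log2 change was -0.05. Zfp661 was at 73 and 81 at 1 h and 33 and 28 at 4 h (-1.001, limma adjusted p = 0.0037). Zfp346 was at 525 and 480 against 360 and 283 (-0.63, adjusted p = 0.0037). Zfp661 lost its call without replicate 2 of either time, and Zfp346 kept it only without the 1 h replicate 1.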
